A study of Mus musculus with 6 samples.

Results

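Cells keep their cholesterol within narrow limits through a small set of regulators and transporters, and 9 of these genes are described here: Srebf1, Srebf2, Scap, Insig1, Insig2, Nr1h2, Abca1, Abcg1 and Apoe. They were chosen by name, as the rows of the longer deposited gene table that carry these symbols, and all 9 were found among its 13192 genes. SREBP-1 and SREBP-2, made by Srebf1 and Srebf2, are transcription factors held in the membrane of the endoplasmic reticulum. When sterols are scarce, SCAP carries them to the Golgi, where they are cut and freed to switch on genes of lipid synthesis; when sterols are plentiful, the INSIG proteins hold SCAP back. The liver X receptors, of which Nr1h2 encodes the beta form, sense oxidised cholesterol and switch on genes of its export. ABCA1 and ABCG1 move cholesterol out of the cell, and in brain much of it leaves on particles built on apolipoprotein E, which astrocytes make in large amounts. Oligodendrocytes make much cholesterol for myelin in the young brain.

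The samples came from mouse cortex at postnatal day 25. RNA bound to ribosomes with an HA tag was captured from cortical lysate on beads coated with an antibody to HA, and was sequenced as stranded mRNA libraries, and the labels give the cell type as neuron. The 3 Rheb cKO samples carry Syn-Cre on top of the alleles Rheb floxp/floxp and Ribo-HA k/+, and their genotype label reads Rheb knockdown. Syn-Cre names a Cre recombinase driven by the neuronal synapsin promoter. The 3 Control samples carry Rheb floxp/floxp and Ribo-HA k/+ with no Cre in their titles, so both groups carry the floxed Rheb alleles and 1 copy of the tag allele by title. Rheb encodes a small GTPase that switches on the kinase complex mTORC1, a known activator of SREBP processing in cultured mouse and human cells. Only the Rheb cKO titles name Cre, and how the tag is expressed without it is not stated, so loss of Rheb and the presence of Cre cannot be told apart in any value below. Whether each sample is a separate animal is not stated either.

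The authors' deposited table gives each gene 1 FPKM value for Rheb cKO and 1 for Control (fragments per gene length and library size), in which the authors combined the 3 samples of the group. No value per sample, SD or depth was used here, and the error behind each gene is the authors' own Cuffdiff test. Rheb was at 9.20 FPKM in Rheb cKO and 22.7 FPKM in Control in the authors' deposited table (log2 fold change -1.30, q = 0.00161). A gene is called where q, the p-value adjusted over all genes, is under 0.05. By that rule 1150 genes, 8.72% of all tested, were called in the authors' deposited table, 604 lower (4.58%) and 546 higher (4.14%) in Rheb cKO. The precipitates held RNA of several cell types. In the authors' deposited table the 10 neuron markers summed to 4417 FPKM in Rheb cKO and 4130 FPKM in Control, the 12 astrocyte markers to 1853 FPKM in Rheb cKO and 2349 FPKM in Control, and the 12 oligodendrocyte markers to 1303 FPKM in Rheb cKO and 3624 FPKM in Control. None of the markers in the table was listed at 0. Fewer cells of a type, less RNA per cell and a different capture of that RNA cannot be told apart in such mixed precipitates. The capture may differ between the groups, since only Rheb cKO carries Cre by title.

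Of the 9 genes, 1 fell in Rheb cKO and none rose by the authors' Cuffdiff test. Insig1 was the gene that fell. A share of 4.58% of all genes was called lower in the authors' deposited table, and against that background a single call among 9 genes says little of the set as a whole. The median log2 fold change of the 9 was -0.05, against 0.03 over the 13175 genes with a finite fold. At an unadjusted p under 0.05 the count was also 1, in a table where 21.2% of genes pass that limit, 9.73% lower and 11.5% higher. Insig1 also passed at a q under 0.01, with 2.77% of all genes lower by that rule, and when adjusted over the 12029 genes at 1 FPKM or above on average, of which 4.75% were lower. All 9 had a mean FPKM of 1 or more, but Abca1 lay close to that limit, at 1.24 FPKM in Rheb cKO and 1.20 FPKM in Control in the authors' deposited table.

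Levels spanned a wide range and kept nearly the same order in both groups. Apoe stood far above the others. In Rheb cKO it was followed on the FPKM scale by Srebf2 (31.1), Nr1h2 (28.9), Scap (26.4), Srebf1 (10.2), Insig2 (9.42), Abcg1 (9.05), Insig1 (8.55) and Abca1 (1.24) in the authors' deposited table. In Control the order after Apoe was Srebf2 (36.6), Nr1h2 (30.0), Scap (26.7), Insig1 (13.0), Srebf1 (11.8), Abcg1 (10.2), Insig2 (9.09) and Abca1 (1.20) in the authors' deposited table. Insig1 changed its place, rank 8 of the 9 in Rheb cKO and rank 5 in Control. As the spread over samples is not known here, neighbours in these orders could not be tested against each other.

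**Figure D1:**
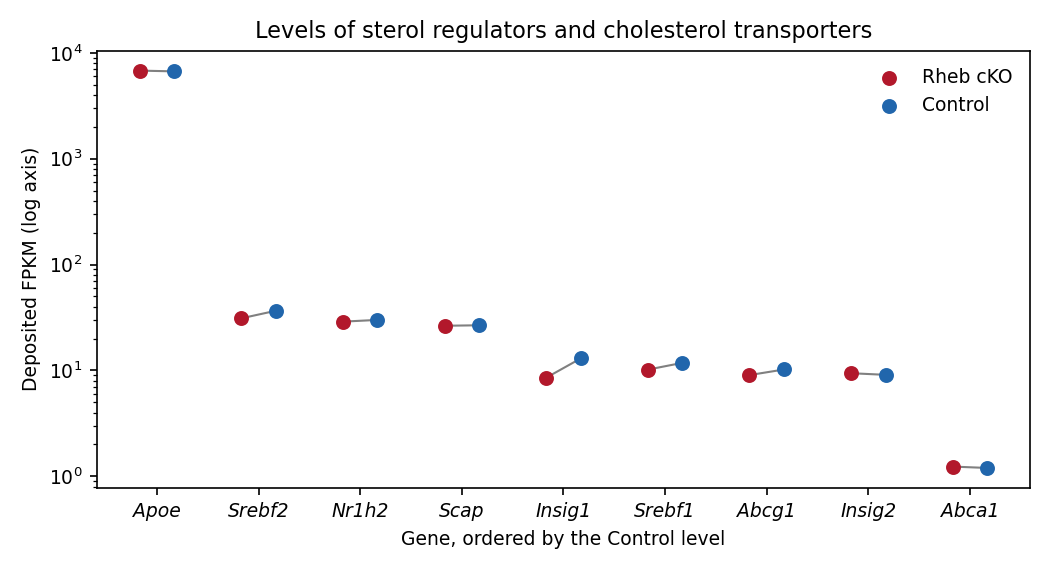
Deposited FPKM of each of the 9 genes on a log axis, with the pooled Rheb cKO value at the left (red) and the pooled Control value at the right (blue) of each pair, joined by a line; there are no error bars because each point is 1 pooled value. Apoe sits at 6793 FPKM in Rheb cKO and 6683 FPKM in Control, and the steepest line is that of Insig1, at 8.55 in Rheb cKO and 13.0 in Control.

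Insig1 encodes a sterol-dependent brake that keeps SCAP and the SREBPs in the endoplasmic reticulum, and its own transcription is driven by SREBPs. Its level was 8.55 FPKM in Rheb cKO, against 13.0 FPKM in Control, in the authors' deposited table, which left 65.7% of the Control level. The log2 fold change was -0.61 with p = 5.00e-05 and q = 0.00161 in the authors' deposited table (Cuffdiff), the smallest p and q that table holds. That p is a floor at which 410 genes lie, so it does not rank Insig1 among them. Among the 4067 other genes whose mean FPKM lay within 2-fold of that of Insig1, 373 were called (9.17%), with a median absolute log2 fold change of 0.57. Insig1 thus moved by about as much as a typical called gene of its level. Markers of oligodendrocytes, described further on, fell in the same comparison. The gene lies on the plus strand of chromosome 5 from 28071363 to 28078662 (mm10 coordinates, GENCODE M21 gene model).

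Insig2 encodes the second INSIG protein, which does the same work but is not under SREBP control in the same way. It was at 9.42 FPKM in Rheb cKO and 9.09 FPKM in Control in the authors' deposited table (log2 fold change 0.05, q = 0.918). Insig1 was at 0.907 times the level of Insig2 in Rheb cKO, against 1.43 times in Control, both per length of gene model. The difference between the folds of these paralogs was not tested, since the pooled values allow no such test. Insig2 is on chromosome 1, minus strand, from 121304353 to 121332589.

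The promoters of both INSIG genes are printed below because one gene fell and its paralog was not called, and that of Hmgcs1, an enzyme early in cholesterol synthesis that fell in the same comparison, because it carries the SREBP motif in full. The sequences are from RefSeq on GRCm38.p6 (the build also known as mm10), each 250 bases before to 50 after the gene's start, read along the gene's strand. For Insig1, RefSeq places the start a little downstream of the GENCODE one. They are chr5:28071162-28071461 on the plus strand for Insig1, chr1:121332540-121332839 on the minus strand for Insig2 (the first of 3 annotated starts) and chr13:119690101-119690400 on the plus strand for Hmgcs1. Capitals mark matches, on either strand, to 4 motifs. One is the SREBP motif, TCACNCCAC. One is the E-box, CACGTG, which SREBPs can also bind. The next is the box that the factor NF-Y binds, CCAAT. The last is the nuclear receptor half-site, AGGTCA.
Insig1: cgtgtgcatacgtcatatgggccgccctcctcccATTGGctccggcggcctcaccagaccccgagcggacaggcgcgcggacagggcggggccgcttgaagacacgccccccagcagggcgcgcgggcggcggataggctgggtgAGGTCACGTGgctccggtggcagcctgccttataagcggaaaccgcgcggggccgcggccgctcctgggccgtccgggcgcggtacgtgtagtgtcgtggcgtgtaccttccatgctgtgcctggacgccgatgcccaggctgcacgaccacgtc
Insig2: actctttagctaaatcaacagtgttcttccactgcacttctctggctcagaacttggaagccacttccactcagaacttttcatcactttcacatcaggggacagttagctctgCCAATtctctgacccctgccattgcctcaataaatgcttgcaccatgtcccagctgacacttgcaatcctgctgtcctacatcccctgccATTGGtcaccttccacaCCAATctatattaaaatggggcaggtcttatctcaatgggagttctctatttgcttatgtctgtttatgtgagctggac
Hmgcs1: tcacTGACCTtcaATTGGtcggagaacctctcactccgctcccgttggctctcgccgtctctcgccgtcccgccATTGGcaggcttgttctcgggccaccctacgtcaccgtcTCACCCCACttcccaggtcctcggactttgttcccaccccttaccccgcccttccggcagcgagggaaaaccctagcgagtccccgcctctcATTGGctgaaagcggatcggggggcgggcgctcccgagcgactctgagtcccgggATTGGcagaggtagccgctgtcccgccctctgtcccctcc

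In the Insig1 window a nuclear receptor half-site starts 105 bases before the gene's start and runs into an E-box that starts 101 bases before it, the motifs sharing letters, and a CCAAT box on the other strand starts 216 bases before it. The Insig2 window holds 3 CCAAT boxes, at 136, 46 and 29 bases before the start, and none of the other motifs. Hmgcs1 holds TCACCCCAC at 137 bases before its start, with 4 CCAAT boxes and a half-site.

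Of the 9 genes, 8 matched the RefSeq promoter table; Abcg1 did not. None of the 8 held the full SREBP motif in any window, which is rare: 1.44% of the 27025 genes in that table hold it. The E-box was found in Abca1, Insig1 and Scap (3 of 8, against 8.09% of all genes). The CCAAT box was found in Insig1, Insig2, Srebf1 and Srebf2 (4 of 8, against 41.1%). The half-site was found in Insig1 (1 of 8, against 18.1%). Of 15 SREBP-2 targets with a promoter in the table, 14 held a CCAAT box and 1, Hmgcs1, the full SREBP motif. These matches describe letters within short windows.

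Srebf2 encodes SREBP-2, which drives cholesterol synthesis and uptake. It was at 31.1 FPKM in Rheb cKO and 36.6 FPKM in Control in the authors' deposited table, 84.8% of the Control level. The log2 fold change of -0.24 was not called (p = 0.0507, q = 0.238, Cuffdiff) in the authors' deposited table. The gene lies on the plus strand of chromosome 15 from 82147181 to 82205379, and its model holds the microRNA gene Mir33, which has no value of its own here.

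Srebf1 encodes SREBP-1, whose forms drive fatty acid synthesis. It was at 10.2 FPKM in Rheb cKO and 11.8 FPKM in Control in the authors' deposited table, 86.3% of the Control level. Its log2 fold change of -0.21 was close to that of Srebf2, but the deposited test gave it far less weight (p = 0.588, q = 0.844, test statistic -0.29, against -1.11 for Srebf2) in the authors' deposited table. Srebf1 has 3 protein-coding transcripts in GENCODE M21, and the SREBP-1a and SREBP-1c forms are summed in the value. Its model, on chromosome 11 (minus strand) from 60199089 to 60222581, overlaps the end of Rai1 on the other strand by 109 bases, and the authors' locus for Srebf1 starts at 60105013, where Rai1 starts. Rai1 was at 30.4 FPKM in Rheb cKO and 26.2 FPKM in Control in the authors' deposited table (log2 fold change 0.22, q = 0.614), and whether the counting used strand is not given in the sources used here. Srebf2 stood at 3.05 times the level of Srebf1 in Rheb cKO and 3.10 times in Control.

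Scap encodes the escort that senses cholesterol and carries SREBPs to the Golgi. It was at 26.4 FPKM in Rheb cKO and 26.7 FPKM in Control in the authors' deposited table (log2 fold change -0.02, q = 0.973), on the plus strand of chromosome 9 from 110333288 to 110384950. Further proteins that process or restrain SREBPs also gave no call. This list of 11 includes the proteases of the Golgi that cut SREBPs (Mbtps1, Mbtps2), the erlins and ubiquitin ligases. None of the 11 was called in the authors' deposited table by Cuffdiff, where 8.72% of all genes were called, and none had an unadjusted p under 0.05, against 21.2% of all genes, so in a list of this size the absence of calls is near the background. Log2 fold changes lay between -0.18 and 0.17 with a median of 0.05. The most abundant was Fbxw7, part of a ligase that degrades nuclear SREBPs (67.3 FPKM in Rheb cKO, 64.9 FPKM in Control, q = 0.892 in the authors' deposited table).

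Genes that SREBP-2 is known to switch on were lower. Of 23, all measured, 11 fell in the authors' deposited table, none rose and 12 were not called, with a median log2 fold change of -0.48 against 0.03 over all genes and a background of 4.58% called lower. With no adjustment, 15 were lower and 1 higher at a p under 0.05, against 9.73% and 11.5% of all genes. The named ones in the authors' deposited table were, with their log2 fold changes, Msmo1 (-1.14) and Cyp51 (-0.68), which remove methyl groups from sterol precursors, Nsdhl (-0.66), which acts beside them, Idi1 (-0.94) of the isoprenoid steps and Hmgcs1 (-0.82). Their q-values in the authors' deposited table were 0.0126 for Cyp51, 0.00291 for Nsdhl and 0.00161 for Msmo1, Idi1 and Hmgcs1. Insig1, itself such a target, lay within them: of the 11 called targets 6 had a lower fold and 5 a higher one.

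Known targets of SREBP-1 in fatty acid synthesis also fell in part. Of 13 measured of 14, 5 fell in the authors' deposited table, none rose and 8 were not called, with a median log2 fold change of -0.31 and a background of 4.58% called lower. The 5 in the authors' deposited table were the desaturases Scd1 (-1.81), Scd2 (-0.58) and Fads1 (-0.73), the elongase Elovl5 (-0.52) and Aacs (-0.53), which activates the ketone body acetoacetate for lipid synthesis, all as log2 fold changes with q of 0.00699 for Aacs and 0.00161 for the others. Fasn, fatty acid synthase, was at 68.2 FPKM in Rheb cKO and 68.0 FPKM in Control in the authors' deposited table (q = 0.994; named after its value was seen). The difference between the SREBP target lists and the list of processing genes was not tested.

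Markers of mature oligodendrocytes moved in the same direction as Insig1 and the SREBP targets. All 12 fell in the authors' deposited table, where 4.58% of all genes were called lower. Their median log2 fold change was -1.59, and their summed level in Rheb cKO was 35.9% of that in Control. Mbp, which encodes a main myelin protein, was at 713.0 FPKM in Rheb cKO and 1973 FPKM in Control, in the authors' deposited table. The part of these cells in the fall of Insig1 and of the SREBP targets was not tested.

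**Figure D2:**
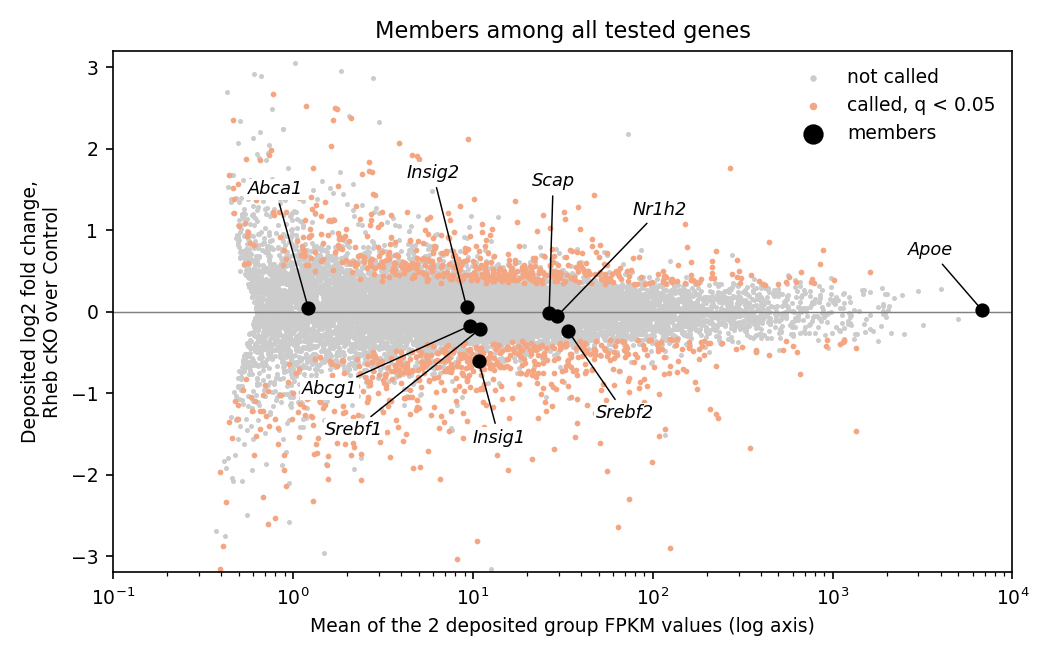
Deposited log2 fold change (Rheb cKO over Control) against the mean of the 2 group FPKM values (log axis) for the genes with a finite fold; grey points are not called, orange points are called at q under 0.05, and black points are the 9 named genes (8 genes lie outside the axes). Insig1, at -0.61, is the single black point among the called genes, and Apoe is the rightmost point of the table.

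Nr1h2 encodes liver X receptor beta, the form of the receptor that most brain cells express. It was at 28.9 FPKM in Rheb cKO and 30.0 FPKM in Control in the authors' deposited table (log2 fold change -0.05, q = 0.904), on chromosome 7, minus strand, from 44549616 to 44553951. Its relative Nr1h3, liver X receptor alpha, was at 1.71 FPKM in Rheb cKO and 2.68 FPKM in Control in the authors' deposited table (log2 fold change -0.65, p = 0.0374, q = 0.197), which is not called. Abca1, Abcg1, Srebf1 and Apoe are known targets of these receptors, and none of them was called. In a list of 13 further genes, holding Nr1h3, the RXR partners, cofactors and other targets, none was called in the authors' deposited table by Cuffdiff, against 8.72% of all genes. Of the 13, 1 had an unadjusted p under 0.05 (Nr1h3), against 21.2% of all genes, and the median log2 fold change was -0.04. Rxrb, a partner of the receptors (61.2 FPKM in Rheb cKO, 56.0 FPKM in Control), and the corepressor Ncor1 (52.2 FPKM in Rheb cKO, 45.0 FPKM in Control) led this list in abundance, with q = 0.671 for Rxrb and 0.763 for Ncor1 in the authors' deposited table.

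Abca1 encodes the pump that loads cholesterol and phospholipid onto apolipoproteins. It was the least abundant of the 9, at 1.24 FPKM in Rheb cKO and 1.20 FPKM in Control in the authors' deposited table (log2 fold change 0.04, q = 0.945). Of the 2808 other genes within 2-fold of its mean FPKM, 6.55% were called. The median absolute log2 fold change of these called genes was 1.03, against 0.57 for those near Insig1. The lowest was 0.40, against 0.35 near Insig1. Abca1 is on chromosome 4, minus strand, from 53030787 to 53159895.

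Abcg1 encodes a transporter that hands cholesterol to lipoprotein particles. It was at 9.05 FPKM in Rheb cKO and 10.2 FPKM in Control in the authors' deposited table, 88.6% of the Control level (log2 fold change -0.18, p = 0.215, q = 0.539). The gene lies on the plus strand of chromosome 17 from 31057675 to 31117988. Abcg1 stood at 7.32 times the level of Abca1 in Rheb cKO and 8.51 times in Control, per length. Among 7 measured of 12 other ABCA and ABCG family genes, 1 fell and none rose in the authors' deposited table, with 4.58% of all genes called lower and 4.14% higher, so this count too says little of the family. The one that fell was Abca7, a lipid transporter related to ABCA1, at 1.01 FPKM in Rheb cKO and 2.06 FPKM in Control in the authors' deposited table (log2 fold change -1.03, q = 0.00161).

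Apoe encodes the main lipoprotein of the brain. It was the most abundant gene of the whole table in both groups, at 6793 FPKM in Rheb cKO and 6683 FPKM in Control in the authors' deposited table (log2 fold change 0.02, p = 0.865, q = 0.961). It made up 1.14% of all FPKM in Rheb cKO and 1.12% in Control, and stood above Nrgn, a neuronal transcript, which was second with 4827 FPKM in Rheb cKO and 5136 FPKM in Control in the authors' deposited table. Apoe is made above all by astrocytes, although the label names neurons as the cell type. Of the 12 astrocyte markers, 4 fell, 2 rose and 6 were not called in the authors' deposited table. Of all genes there, 4.58% were called lower and 4.14% higher. The median log2 fold change of these markers was -0.21, and their summed level in Rheb cKO was 78.9% of that in Control. By the mean over both groups the most abundant astrocyte markers were Aldoc (1142 FPKM in Rheb cKO, 1554 FPKM in Control, q = 0.0317) and Ntsr2 (122 FPKM in Rheb cKO, 222 FPKM in Control, q = 0.00161), both from the authors' deposited table. The 2 astrocyte markers that rose, picked after their values were seen, were Gfap (197 FPKM in Rheb cKO, 129.6 FPKM in Control, q = 0.0189) and Fgfr3 (24.7 FPKM in Rheb cKO, 16.8 FPKM in Control, q = 0.00161) in the authors' deposited table. Microglia, which can also make Apoe, had 9 of 10 markers in the authors' deposited table. None of these was called by Cuffdiff, against 8.72% of all genes, and 3 were higher at an unadjusted p under 0.05, against 11.5%. Their median log2 fold change was 0.40 and their summed level 31.5 FPKM in Rheb cKO and 25.8 FPKM in Control. Aif1 (q = 0.904) and C1qa (q = 0.0685) were the most abundant of these markers. The part of these cells in the level of Apoe was not tested. Apoe is on chromosome 7, minus strand, from 19696109 to 19699188.

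Other carriers and receptors of lipoproteins were mostly not called. Of 14 measured of 16, 2 fell and none rose in the authors' deposited table, and 12 were not called, with 4.58% of all genes called lower. Apod, an apolipoprotein of glia that binds small lipids, was at 17.6 FPKM in Rheb cKO and 110.5 FPKM in Control in the authors' deposited table (log2 fold change -2.65, q = 0.00161), 16.0% of the Control level. Oligodendrocytes are known to express Apod, and their markers fell in the same comparison as given above. The part of these cells in the fall of Apod was not tested.

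Of 16 measured of 18 genes that handle cholesterol inside the cell, 1 fell and none rose in the authors' deposited table, where 4.58% of all genes were called lower, so the count is near the background. The median log2 fold change was -0.02, with a range from -0.98 to 0.15, and 3 were lower at an unadjusted p under 0.05, against 9.73% of all genes. The gene that fell was Npc2, which lifts cholesterol out of the lysosome, at 17.3 FPKM in Rheb cKO and 27.0 FPKM in Control in the authors' deposited table (log2 fold change -0.65, q = 0.00161). Cyp46a1, the neuronal enzyme that turns cholesterol over to a form that leaves the brain, was at 192 FPKM in Rheb cKO and 194 FPKM in Control in the authors' deposited table (q = 0.971; named after its value was seen).

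**Figure D3:**
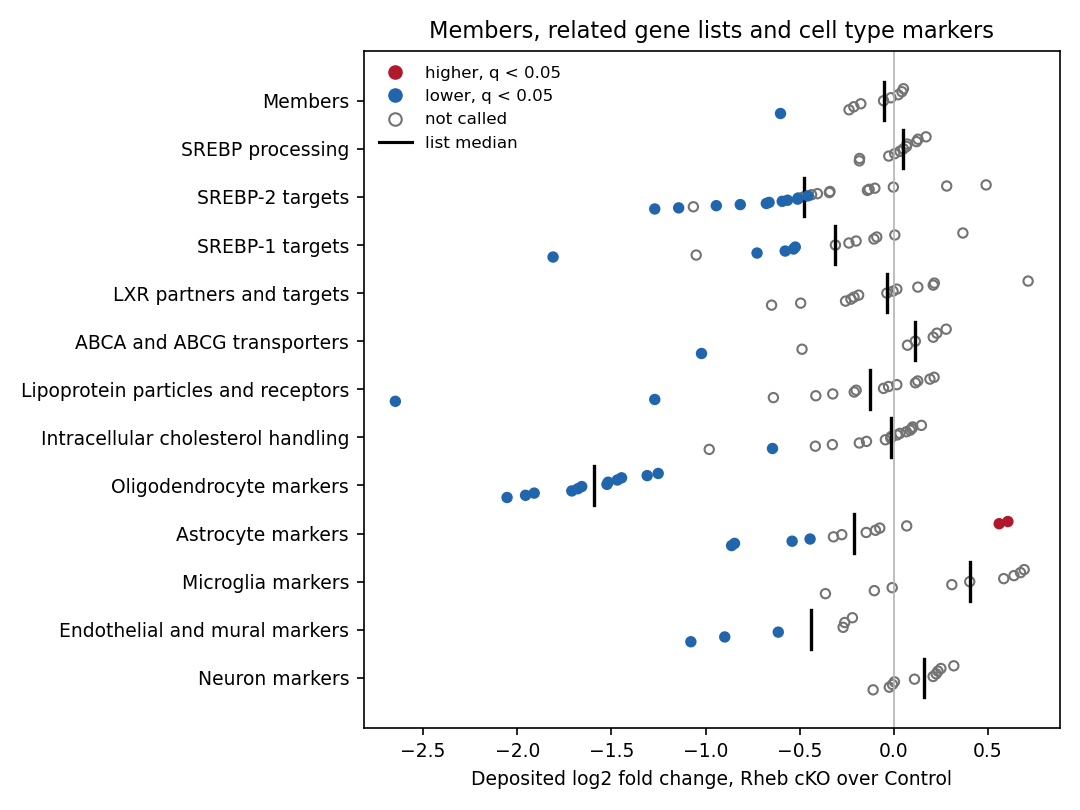
Deposited log2 fold change (Rheb cKO over Control) of each gene, by list: the 9 named genes at the top, then 7 lists of related genes and 5 lists of cell type markers; filled points are called at q under 0.05 (blue lower, red higher in Rheb cKO), open points are not called, and the black bar is the list's median. The SREBP-2 targets (median -0.48) and SREBP-1 targets (median -0.31) lie left of the 9 genes (median -0.05), and the oligodendrocyte markers lie furthest left (median -1.59).

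The medians of the remaining marker lists lay nearer to 0 than that of the oligodendrocyte list. Of 10 neuron markers none was called by Cuffdiff, against 8.72% of all genes, and 3 were higher at an unadjusted p under 0.05, against 11.5%, with a median log2 fold change of 0.16; Snap25 was at 981 FPKM in Rheb cKO and 986 FPKM in Control, and Stmn2 at 908 FPKM in Rheb cKO and 785 FPKM in Control, in the authors' deposited table. Of the 6 endothelial and mural markers measured of 10 (Flt1, Kdr, Pecam1 and Slco1a4 were not analysed here), 3 fell in the authors' deposited table, against 4.58% of all genes, with a median log2 fold change of -0.44, led in abundance by Vtn (24.4 FPKM in Rheb cKO, 51.5 FPKM in Control) and Rgs5 (7.75 FPKM in Rheb cKO, 11.9 FPKM in Control).

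The 8 genes not called had log2 fold changes from -0.24 (Srebf2) to 0.05 (Insig2). For the 7 of them other than Apoe, the lowest absolute log2 fold change called among genes within 2-fold of their level was between 0.34 and 0.40. The changes seen were smaller than that. This value is not a limit for each gene, because the error of the test differs by gene. Srebf1 had a test statistic of -0.29 at a fold of -0.21, against -1.11 at -0.24 for Srebf2. A larger change in a gene such as Srebf1 could thus also go uncalled. Apoe has only 2 genes within 2-fold of its level, neither called, and no such value could be read for it.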

How the data were processed

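Ribosome-bound RNA of 6 samples (3 Rheb cKO, 3 Control, grouped by title) was sequenced by the authors. Cuffdiff 2.2.1, TopHat2 2.1.0 and the build mm10 stand in the submitters' processing notes, without settings; for the annotation release and strand setting, these were not given in the sources used here. The deposited table gives, per the file headers, for each of 13192 genes a pooled FPKM value per group, a log2 fold change of Rheb cKO over Control with no pseudocount, a test score (the signed Cuffdiff statistic), and a p-value and q-value. The deposited fold matched the log2 ratio of the FPKM values to within 1.23e-05, and the deposited q-values matched Benjamini-Hochberg adjustment to within 7.27e-05. Deposited p-values have a floor of 5.00e-05. Depth per sample is unknown, so no interval from counts is given. If the samples of a group are not separate animals, the q-values cover only variation between these samples, which may be technical.

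Folds and calls were read from the table, and lists were described by counts and medians. The 9 genes and the 12 lists (7 of related genes, 5 of markers) were chosen with earlier results of these data known. All 9 genes were named; each related list gave up to 6 called genes of highest absolute fold with a mean FPKM of 1 or more, or its 2 most abundant genes where none was called, and each marker list its 2 most abundant. Some genes are on more than 1 list (Abcg4 and Apoc1, for example). Some genes that this rule names are not reported here. Positions are from GENCODE M21, which held 99.7% of the gene IDs with versions left off. A planned comparison of protein sequences was not made. Python 3.11.15, numpy 2.4.6, pandas 2.3.3 and matplotlib 3.10.9 were used; adjustment and motif code was tested on simulated data. Alternatives were other thresholds, a filter on low values, pseudocounts of 1 and 0.1 FPKM, centring and 1 mismatch in a motif.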

Additional observations from a re-analysis of the deposited data

How the results depend on the processing

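No paired analysis was possible because the deposited values are pooled over the samples of each group and carry no replicate number; leaving out each replicate was not run for the same reason. Insig1 remained lower and called at a q under 0.01. It did so too with genes under a mean FPKM of 1 left out and the rest adjusted again. Its deposited q was 0.00161 and its p lay at the floor of the table, so these rules could hardly have removed the call. At an unadjusted p under 0.05 Insig1 had to stay called, since its q was already under 0.05. The other 8 genes could newly pass only the unadjusted and the filtered rule, and passed neither. Adding 1 or 0.1 FPKM and centring changed only the folds and kept the deposited calls, so they did not test the calls. Under each of them Insig1 stayed lower. After subtraction of the median fold of all genes whose mean FPKM was at least 1 (0.03), Apoe had a log2 fold change of -0.0085, so its sign carries no weight. At an unadjusted p under 0.05, 1 of 23 SREBP-2 targets was higher, against 11.5% of all genes. Lower by that rule, against 9.73% of all genes, were 1 of 13 receptor partners and targets and 2 of 7 ABCA and ABCG transporters. So were 4 of 14 lipoprotein carriers and receptors and 3 of 16 intracellular handling genes. With 1 mismatch allowed, 4 of the 8 genes with a promoter window (Apoe, Insig1, Insig2 and Srebf2) held the SREBP motif, as did 26.7% of all genes. The median log2 fold change of the 9 genes was -0.087 after the same centring, against -0.055 as deposited. Under every alternative run, the remaining counts of the 9 genes and of the 7 related lists moved by no more than 1.5 times. The 5 marker lists were left out of these alternatives, so the stability of their counts was not checked. The folds of the genes other than Apoe kept their direction. List counts under the pseudocounts and centring also rest on the deposited calls. Without depth per sample, the limits for low genes such as Abca1 cannot be set by reads.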

Other observations

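Mvd, which closes the mevalonate steps, had a log2 fold change of -1.06 in the authors' deposited table, at 22.1 FPKM in Rheb cKO and 46.2 FPKM in Control, with q = 0.905, and Acss2, which makes acetyl-CoA from acetate, had -1.05 with q = 0.0547. Both were picked after their values were seen. Folds of this size were called for Msmo1 and Idi1 in the same table.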
